A study of Mus musculus with 11 samples.

Results

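The regulators of extraembryonic endoderm described here are 7 genes taken by symbol from the deposited table of 38197 genes: Gata4, Gata6, Sox17, Sox7, Foxq1, Hnf4a and Pdgfra. All 7 were present in the table, and all 7 passed the filter on low counts, both over the 8 unsorted libraries and over all 11. Their values were followed over E14 mouse embryonic stem cells (strain 129, wild type) at day 0 and over the same wild-type line differentiated in monolayer with retinoic acid (RA) and SAG, a Smoothened agonist that turns on hedgehog signaling, toward ventral hindbrain neurons. Unsorted cultures gave 2 libraries at each of days 0, 1, 2 and 3. The 3 remaining libraries are of cells purified by their Prominin-1, which neural progenitors display on the membrane, and carry the status day 3.5, although another of their labels gives 3 days. The labels list RA and SAG over days 0 to 3 for every sample, including the stem cells. For the stem cells of day 0 that label alone does not show whether they received either. No differentiated group was kept without RA and SAG. All groups are 1 cell line of 1 genotype, and the labels are silent on whether replicate libraries are separate cultures. The p-values therefore measure the spread between these libraries.

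Extraembryonic endoderm is the earliest endoderm of the mouse embryo. It begins as primitive endoderm, which arises beside the pluripotent epiblast in the blastocyst under FGF signaling and later forms the visceral and parietal endoderm of the yolk sac. Gata6 acts at the start of this choice and is opposed by Nanog in the epiblast, and Pdgfra, Sox17, Gata4 and Sox7 mark successive steps after it. Stem cell cultures can hold cells that leave pluripotency toward this lineage, and RA is an inducer of it in several stem cell and carcinoma cell systems.

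Windows around start sites came from a RefSeq table (GRCm38.p6, 250 bases before to 50 after the start). They were read for 2 of the 7 genes, Hnf4a and Pdgfra, and windows of the other members were not examined. These 2 were also the genes with the lowest and the highest mean share left after the sort. Capitals mark a match to a GATA word (AGATAA or its variants TGATAA and, with a last G, AGATAG as well as TGATAG) or to the SOX word AACAAT, searched on both strands. The GATA words overlap each other in letters and were counted as 1 motif.
Hnf4a, upstream start, chr2:163506607-163506906, plus strand: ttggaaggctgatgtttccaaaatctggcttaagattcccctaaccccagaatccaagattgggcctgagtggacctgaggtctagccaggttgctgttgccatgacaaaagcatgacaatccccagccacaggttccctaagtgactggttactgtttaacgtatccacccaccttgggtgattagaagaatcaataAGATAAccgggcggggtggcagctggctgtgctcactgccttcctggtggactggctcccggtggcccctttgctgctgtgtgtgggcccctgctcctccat
Pdgfra, chr5:75152001-75152300, plus strand: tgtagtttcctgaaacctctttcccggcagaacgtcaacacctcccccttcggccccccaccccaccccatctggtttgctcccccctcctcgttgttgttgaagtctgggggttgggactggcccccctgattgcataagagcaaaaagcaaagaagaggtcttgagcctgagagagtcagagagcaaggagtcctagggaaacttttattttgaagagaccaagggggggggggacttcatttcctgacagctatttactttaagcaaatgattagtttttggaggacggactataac
The Hnf4a window held 1 GATA match, AGATAA, starting 52 bases before the start site (position -52), and 0 SOX matches. The other annotated start of Hnf4a (window chr2:163546905-163547204) and the Pdgfra window held 0 of either. Of 32841 windows of this length in the table, 29.8% held a GATA word and 10.7% a SOX word, so a match of this kind is common, and it is a description of letters only.

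Total counts ran from 26136300 to 30384600 in the unsorted libraries and from 13173700 to 17113400 in the sorted ones, so 3 counts, taken as the floor of detection, correspond to 0.0938 to 0.128 CPM in the former and 0.179 to 0.221 CPM in the latter. Levels are CPM, library-scaled counts with TMM factors, which compare 1 gene between libraries. FPKM values, which are per length, were used to compare genes. As a check of the labels, the pluripotency factors Nanog and Pou5f1 averaged 221 ± 57.9 and 435 ± 145 CPM at day 0 (SD, n = 2) and were at 3 and 1 counts in all over the 3 sorted libraries. Prom1, which codes for Prominin-1, rose from 42.5 ± 3.13 CPM at day 0 to 238 ± 34 at day 3 and stood at 299.7 ± 29.5 CPM in the sorted cells (SD, n = 3). The difference in Prom1 between sorted and day 3 libraries was not called (log2 fold change 0.33 ± 0.15 SE, edgeR adjusted p = 0.315).

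All 7 regulators were present in every unsorted library, the stem cells included, and their day means differed by at most 2.42-fold except for Sox17. In the sorted libraries all 7 were lower than in any unsorted library. The sorted mean was between 1.11% and 15.6% of the day 3 mean. These are bulk measurements, in which fewer cells of a type and less RNA per cell cannot be told apart.

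**Figure D1:**
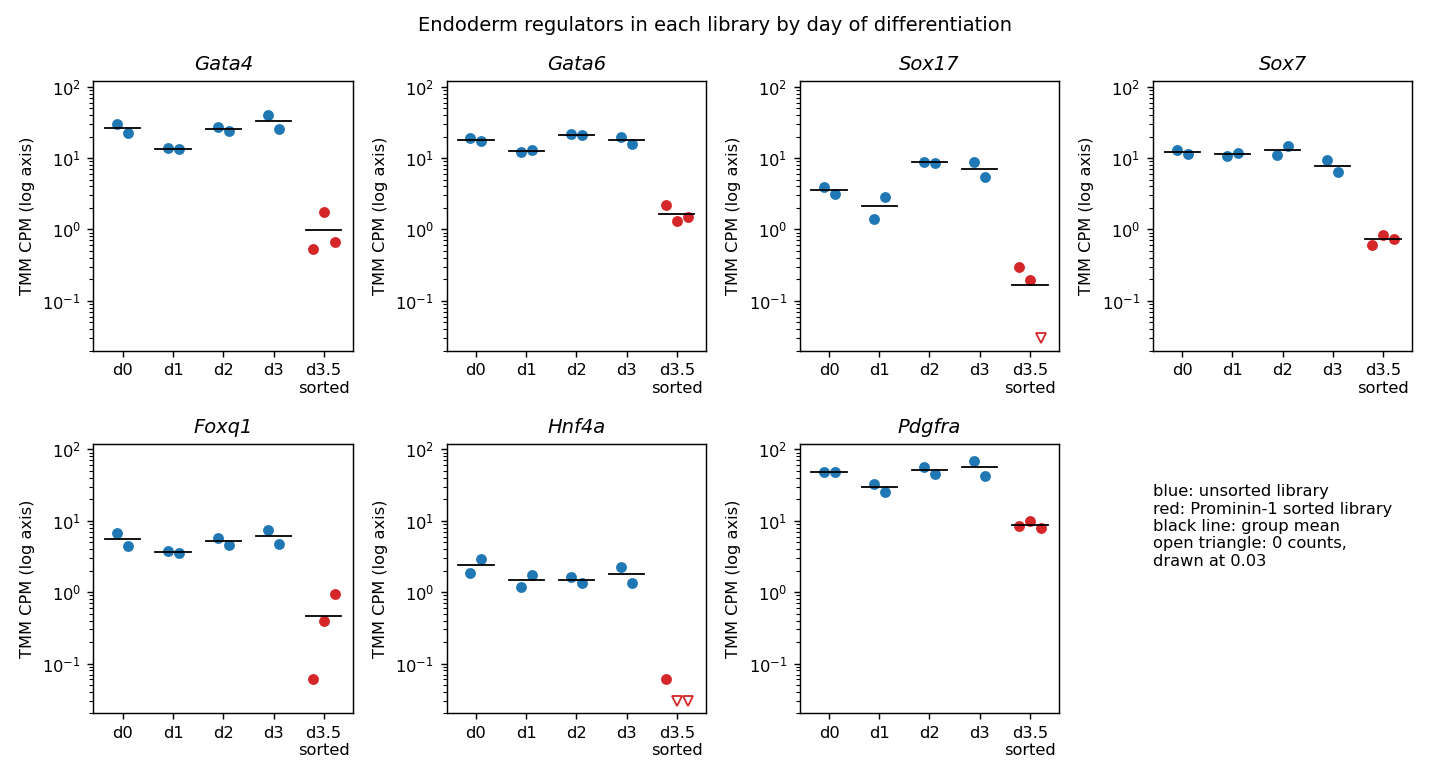
TMM-scaled CPM on a log axis for each of the 7 regulators in the 11 libraries, by day; blue points are unsorted libraries, red points Prominin-1 sorted libraries, black lines group means, and open triangles libraries with 0 counts. Every red point lies below every blue point of its gene, and the blue points of a gene span at most 3.03-fold, except for Sox17 with 6.31-fold.

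The GATA factors are zinc finger proteins that bind the same core sequence and drive the primitive endoderm program. Gata6 (GRCm38 chromosome 18, 11052064 to 11085635) had CPM values of 18.9 and 17.4 in the stem cells. Its day 1 pair was 12.05 and 13.002, its day 2 pair 21.5 and 20.9, and its day 3 pair 19.996 and 15.9. The sorted libraries had 2.21, 1.30 and 1.47 CPM, from 37, 20 and 20 counts. Day 1 was the lowest of the unsorted days and did not overlap the others. Gata4 (chromosome 14, 63198922 to 63271692), which follows Gata6 in the lineage, had 30.5 and 22.5 CPM in the stem cells. Its day 1 pair was 13.9 and 13.3, its day 2 pair 27.5 and 24.2, and its day 3 pair 40.2 and 25.5. Its sorted values were 0.538, 1.75 and 0.662 CPM. Gata4 also had its lowest unsorted values at day 1, and days 0, 2 and 3 overlapped. The share of the day 3 mean left after the sort was 3.00% for Gata4 and 9.26% for Gata6, and in each of the 3 sorted libraries it was lower for Gata4 (1.64%, 5.33% and 2.02%) than for Gata6 (12.3%, 7.23% and 8.20%).

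Sox17 and Sox7 are related SoxF factors of the HMG-box family, shared by extraembryonic endoderm and by blood vessel endothelium. Sox17 (chromosome 1, 4490931 to 4497354) had 3.98 and 3.17 CPM in the stem cells. Its day 1 pair was 1.41 and 2.81, its day 2 pair 8.88 and 8.61, and its day 3 pair 8.68 and 5.40. It was the member with the widest range over the unsorted days, with 4.15-fold between its highest and lowest day mean, and days 2 and 3 lay above days 0 and 1 without overlap. The sorted libraries held 5, 3 and 0 counts of Sox17, against 166 and 276 in the day 3 libraries. Sox7 (chromosome 14, 63943673 to 63950732) had another course, with 13.1 and 11.5 CPM in the stem cells, a day 1 pair of 10.9 and 11.7, a day 2 pair of 11.1 and 14.97, and its lowest unsorted values, 9.27 and 6.44 CPM, on day 3. Its sorted values were 0.598, 0.843 and 0.735 CPM, close to each other and far below day 3. Sox18, the remaining SoxF gene and an endothelial marker, was at or below 0.849 CPM in every unsorted library.

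Foxq1 (chromosome 13, 31556134 to 31560976) codes for a forkhead factor, and Hnf4a (chromosome 2, 163506808 to 163572910) for a nuclear receptor that governs the absorptive and secretory genes of visceral endoderm. Foxq1 had 6.73 and 4.41 CPM in the stem cells. Its day 1 pair was 3.71 and 3.53, its day 2 pair 5.76 and 4.62, and its day 3 pair 7.39 and 4.71. The sorted libraries disagreed about it, with 1, 6 and 13 counts, or 0.0598, 0.389 and 0.956 CPM, yet all stayed below the lowest unsorted value. Hnf4a was the weakest member, with 1.84 and 2.95 CPM in the stem cells, a day 1 pair of 1.19 and 1.75, a day 2 pair of 1.64 and 1.34, and a day 3 pair of 2.26 and 1.33. Both day 0 libraries lay above those of days 1 and 2, and day 3 overlapped each of the other days. The sorted libraries held 1, 0 and 0 counts against 72 and 41 at day 3. The ratio of the pooled Hnf4a level at day 3 to that in the sorted cells was 82.6, with an exact 95% counting interval of 14.5 to 3293 that covers counting error only.

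Pdgfra (chromosome 5, 75152292 to 75198215), the receptor tyrosine kinase for PDGF, marks primitive endoderm at the cell surface and is also used by mesenchyme, neural crest and oligodendrocyte precursors. It had 48.4 and 48.2 CPM in the stem cells. The day 1 pair was 33.2 and 25.4, the day 2 pair 55.9 and 45.4, and the day 3 pair 69.6 and 42.9, with day 1 below the other days. The sorted libraries had 8.54, 10.05 and 7.79 CPM from 106 to 155 counts. The share of the day 3 mean left was 15.6% for Pdgfra, the highest mean of the 7. In single libraries the Pdgfra share was 15.2%, 17.9% and 13.9%, the highest in the first and the second, while Foxq1 with its 13 counts reached 15.8% in the third.

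Per length, the order of the members in unsorted cultures was Gata4, Pdgfra, Gata6, Sox7, Foxq1, Sox17 and Hnf4a, with median FPKM levels of 12.03, 5.15, 4.16, 2.59, 1.35, 1.16 and 0.297 over the 8 libraries. Gata4 had a higher FPKM than Pdgfra in 8 of 8 libraries, Gata6 than Sox7 in 8, Sox7 than Foxq1 in 8, and Sox17 than Hnf4a in 8. Pdgfra was above Gata6 in 7, and Foxq1 above Sox17 in 4, so the places of that last pair are not separated. By FPKM the share of day 3 left after the sort ran from 0.78% for Hnf4a to 14.9% for Pdgfra, and for each of the 7 it was within 1 SD of the value from CPM.

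The first step of differentiation was read by comparing day 1 with day 0. No day 1 group was kept without RA and SAG, so an answer to them cannot be told apart from other changes over that day. All 7 had a negative log2 fold change, with a median of -0.69 against 0.01 over all genes tested. The edgeR quasi-likelihood test with Benjamini-Hochberg adjustment called 1 of the 7 lower and 0 higher, beside 8.91% of 16810 genes called lower and 12% called higher, 20.9% in all. At an unadjusted p under 0.05 the counts were 3 lower and 0 higher. No share of all genes was taken at that threshold, so those counts cannot be set against a background. DESeq2 called 2 lower and 0 higher, where it called 1681 of all genes lower and 2115 higher. Gata4 was the member called, from 26.5 ± 5.63 to 13.6 ± 0.474 CPM (SD, n = 2; log2 fold change -0.96 ± 0.26 SE, adjusted p = 0.031). Pdgfra, with a log2 fold change of -0.72 ± 0.25, missed the threshold (adjusted p = 0.0724), and Sox7 was nearly level at -0.13 ± 0.27. The Gata4 call was lost without day 0 replicate 1, with adjusted p = 0.126, without either day 1 library (0.0731 and 0.0859) and without either day 2 library (0.0589 and 0.0596). It was also lost with the sorted libraries in the fit (0.0637), and in 11 of 19 alternative settings in all.

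Over the same step a list of 5 pluripotency factors, Nanog, Pou5f1, Sox2, Klf4 and Esrrb, had 5 called lower and 0 higher. Nanog, the repressor of Gata6, went from 221 ± 57.9 to 7.35 ± 1.03 CPM. Of 11 tested genes of the FGF signal that directs the primitive endoderm choice, 1 was called higher and 6 lower.

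Between day 1 and day 2 all 7 log2 fold changes were positive, with a median of 0.76 against -0.003 over all genes. By edgeR 3 of the 7 were called higher and 0 lower, beside 9.65% of all genes called higher and 9.99% called lower, 19.6% in all. DESeq2 called 4 higher and 0 lower, where it called 2056 of all genes higher and 1832 lower. The unadjusted counts were also 4 and 0, again without a count over all genes. Sox17 rose most, with means of 2.11 ± 0.994 CPM on day 1 and 8.75 ± 0.19 on day 2 (log2 fold change 2.05 ± 0.39, adjusted p = 0.00773). Gata4 rose to 25.8 ± 2.36 CPM (0.93 ± 0.26, adjusted p = 0.0364) and Gata6 from 12.5 ± 0.676 to 21.2 ± 0.386 CPM (0.76 ± 0.21, adjusted p = 0.0344). For both genes the day 0 libraries lay above the day 1 libraries too. Pdgfra, at 0.79 ± 0.25, again lay just outside the threshold (adjusted p = 0.055). With a per-library offset for GC content, added after the data were seen, the log2 fold change was 0.36 for Gata4 (adjusted p = 0.333) and 0.41 for Gata6 (0.152), whereas Sox17 stayed at 1.92 (0.00196) and Pdgfra was called at 0.87 (0.0189). Without day 2 replicate 1 none of the 7 was called, with adjusted p = 0.0507 for Sox17. The count was 1 without day 2 replicate 2 and without either day 1 library. With the sorted libraries in the fit Gata4 had adjusted p = 0.0733. Of 19 alternative settings 11 lost the Gata4 call, 10 that of Gata6 and 2 that of Sox17.

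Between day 2 and day 3 edgeR called 0 of the 7 in either direction, beside 4.07% of all genes, 2.81% higher and 1.26% lower. At an unadjusted p under 0.05 there was 1 member lower, Sox7 (log2 fold change -0.73 ± 0.27, adjusted p = 0.167), and 0 higher, without a count over all genes. DESeq2 called 0 of the 7, where it called 924 of all genes higher and 509 lower. The remaining log2 fold changes lay between -0.31 and 0.35. The 2 libraries of day 3 were not alike for these genes: all 7 were higher in replicate 1, with a median log2 difference of 0.66, against a median of -0.01 and an SD of 0.51 over all genes tested. In the primitive and parietal endoderm effectors the median difference was 0.70, and 15 of 17 were higher in replicate 1. The shift was smaller in the other endoderm regulators (median 0.12, 6 of 11 higher) and in the visceral endoderm list (median 0.08, 6 of 12 higher). Replicate 1 was higher for 6 of 7 members at day 0, 3 at day 1 and 6 at day 2, with medians of 0.19, -0.10 and 0.19.

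**Figure D2:**
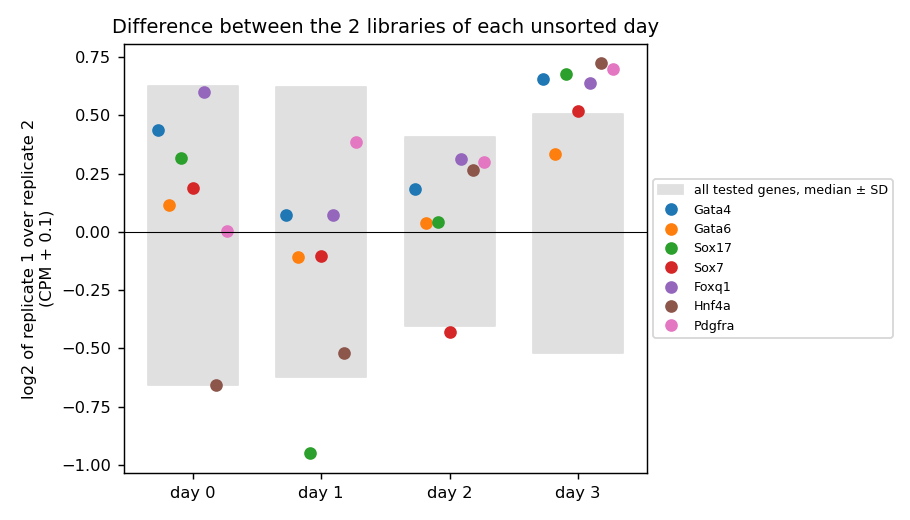
Log2 of replicate 1 over replicate 2 (CPM + 0.1) for the 7 regulators within each unsorted day; colored points are genes and gray boxes the median ± SD over 16810 tested genes. At day 3 all 7 points lie above 0, with a median of 0.66.

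The members did not vary as a single unit over the unsorted cultures. Over the 8 unsorted libraries, as a description, Pearson's r of log2(CPM + 1) was 0.94 between Gata4 and Pdgfra, 0.94 between Gata4 and Foxq1 and 0.84 between Gata4 and Gata6. Sox7 had r between -0.16 and 0.22 with the other members and Hnf4a between 0.06 and 0.40. Hnf4a had only 33 to 72 counts per unsorted library, and the part of counting error in its r was not tested. The libraries come in pairs of the same day, so the values describe this set only.

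Whether the regulators were kept in cells sorted for Prominin-1 was asked by comparing the day 3.5 sorted libraries with day 3. EdgeR called 7 of 7 lower, where 2.93% of 17006 genes were called lower and 0.435% higher, 3.37% in all. The 7 genes were chosen with earlier results of these data known. The median log2 fold change of the 7 was -3.75, against -0.01 over all genes. Gata4 went down from 32.8 ± 10.4 CPM in day 3 libraries to 0.983 ± 0.667 CPM in sorted ones (log2 fold change -5.05 ± 0.38, adjusted p = 4.31e-05), 33.4-fold by the group means, and Sox17 from 7.04 ± 2.32 to 0.164 ± 0.152 CPM (-5.30 ± 0.56, adjusted p = 0.000423). For Gata6 the means were 17.9 ± 2.92 and 1.66 ± 0.486 CPM (-3.42 ± 0.24, adjusted p = 2.74e-05) and for Sox7 7.86 ± 2.01 and 0.725 ± 0.123 CPM (-3.43 ± 0.28), each lower by near 10.8-fold. Foxq1 changed by -3.75 ± 0.55 (adjusted p = 0.00354) and Pdgfra by -2.68 ± 0.22 (adjusted p = 9.22e-05). Hnf4a was called lower as well (adjusted p = 0.00116), and its fitted value rests on a single count in the sorted group.

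By the size of the log2 fold change Gata4 was the 57th lowest and Sox17 the 40th lowest of the 17006 genes tested, and Pdgfra, the least changed member, the 365th lowest. A call lower with a log2 fold change under -3 was found for 99 genes (0.582%), and 6 of the 7 members were among them. For 8.92% of genes every sorted library lay below every unsorted library, and this held for 7 of 7 members. EdgeR called all 7 lower against day 3 with any 1 of the 3 sorted libraries left out. The sorted and unsorted libraries carry codes with different prefixes in their descriptions, and the labels do not say what the codes stand for. The sort, the added time and anything that goes with the codes differ together, so their parts in the difference cannot be told apart.

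Against the stem cells of day 0 the sorted libraries were lower for 7 of 7 members too, beside 31.4% of genes called lower and 30% higher, 61.5% in all, in that comparison. The log2 fold changes were -4.75 ± 0.38 for Gata4, -3.44 ± 0.24 for Gata6, -4.33 ± 0.58 for Sox17, -4.08 ± 0.28 for Sox7, -3.63 ± 0.56 for Foxq1 and -2.46 ± 0.22 for Pdgfra, with adjusted p between 4.14e-07 and 0.000176. Day 0 and day 3 thus gave similar differences, and both comparisons use the same 3 sorted libraries.

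**Figure D3:**
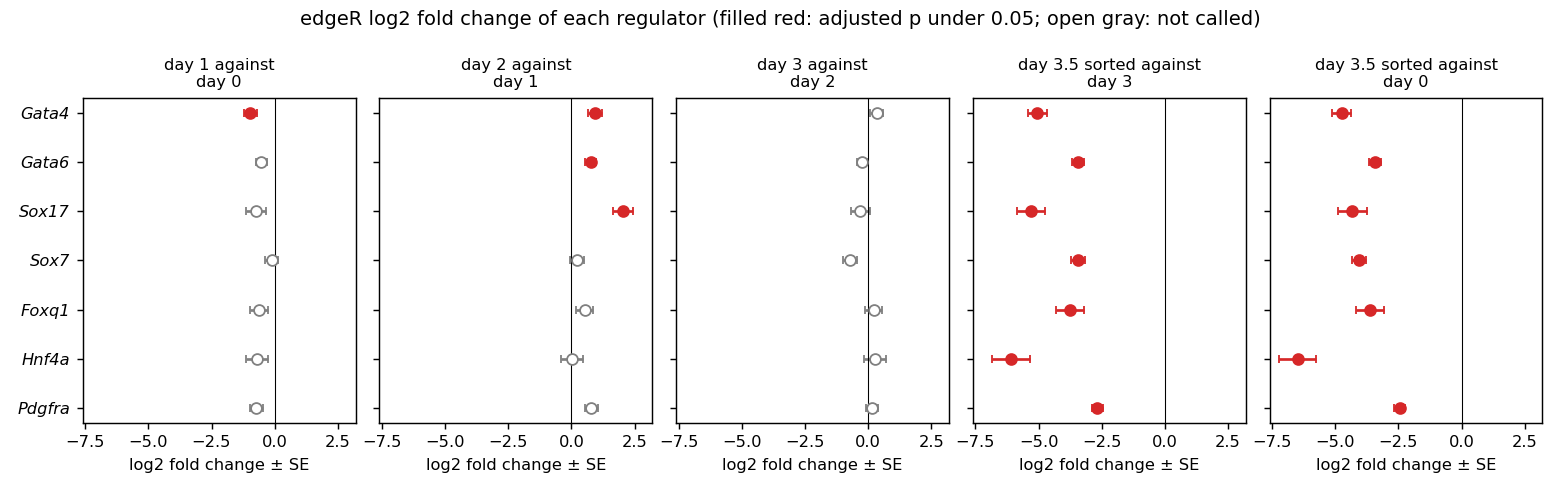
EdgeR log2 fold change ± SE of the 7 regulators in 5 comparisons; filled red points have an adjusted p under 0.05 and open gray points were not called. All 7 points are red and left of 0 in both sorted comparisons, against 1, 3 and 0 in the steps between unsorted days, and the Hnf4a points of the sorted comparisons rest on 1 sorted count.

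Other genes of the extraembryonic endoderm were read from lists chosen with earlier results of these data known. The effectors of primitive and parietal endoderm, mostly basement membrane and surface genes, had 13 of 17 tested genes lower after the sort, 0 higher and 4 not called, with a median log2 fold change of -1.83. Srgn, a proteoglycan core protein, behaved most like the regulators, with 28.4 and 41.9 CPM in the day 3 libraries and 0.809 to 1.195 in the sorted ones (log2 fold change -5.10 ± 0.27, adjusted p = 7.79e-06). The laminin chain genes Lamb1 and Lama1 and the activin inhibitor gene Fst fell by less, with log2 fold changes of -3.10 ± 0.22, -2.60 ± 0.24 and -2.46 ± 0.26. Lama1 still stood at 213 ± 27.7 CPM in the sorted cells, after 369 ± 101 at day 0. From day 1 to day 2 the same list had 13 of 17 higher and 0 lower, led by Fst with a log2 fold change of 3.36 ± 0.27. Leaving out day 1 replicate 1 gave 7. Leaving out a day 2 library gave 5 (replicate 1) or 8 (replicate 2). Over the other settings it ran from 3, with log2(FPKM + 1) without a filter, to 17, with DESeq2 or without a filter on counts. The count after the sort was 8 without day 3 replicate 1, without the first sorted library or without the second, and 8 to 15 over the other settings.

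The visceral endoderm genes of uptake and secretion had 5 of 12 tested genes lower after the sort, 0 higher and 7 not called. Cubn, the endocytic receptor cubilin, had the smallest adjusted p of the list. It held 175 ± 9.86 CPM at day 0, 168 ± 29.3 at day 1, 157 ± 4.94 at day 2 and 97.1 ± 1.62 at day 3, and 2.22 ± 0.803 CPM in the sorted libraries (log2 fold change -5.43 ± 0.22, adjusted p = 6.96e-07). Lrp2, its partner megalin, is also made by neuroepithelium, and it changed by only -0.82 ± 0.13 (adjusted p = 0.00579), to 178 ± 14.5 CPM. Cited1 changed by -2.64 ± 0.37. Its secreted markers differed in level: Apoa1 and Apoc2 had 3 or fewer counts in every library and Ttr reached 0.796 ± 0.298 CPM at day 3, while Apob and Rbp4 stood at 6.02 ± 4.68 and 6.46 ± 3.71 CPM that day. Apoe was highest in the stem cells, at 54.2 ± 27.8 CPM, with 7.14 ± 0.714 at day 3 and 3.29 ± 0.915 in the sorted cells. The list had 2 genes lower without day 3 replicate 1, 3 without the first sorted library and 3 without the second, and 3 to 6 over the other settings.

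The other regulators linked to extraembryonic endoderm did not share the pattern as a list. After the sort 2 of 11 were lower, 0 higher and 9 not called, a count that was 0 without day 3 replicate 1 or without the second sorted library, and 1 without day 2 replicate 2 or without the first or the third sorted library. Over the other settings it was 1 to 3. Foxa2, which floor plate and endoderm both use, rose from 8.97 ± 0.348 CPM at day 1 to 83.8 ± 30.2 at day 2 and stood at 114 ± 22.3 CPM in the sorted cells, where its change from day 3 was not called. Eomes and Otx2 were called lower at day 2, to 1.58 ± 0.0769 and 0.165 ± 0.0234 CPM. The floor plate list, none of whose genes was called after the sort, had a sum of 1260 to 2404 CPM at day 3 and 1959 to 2468 CPM after the sort.

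**Figure D4:**
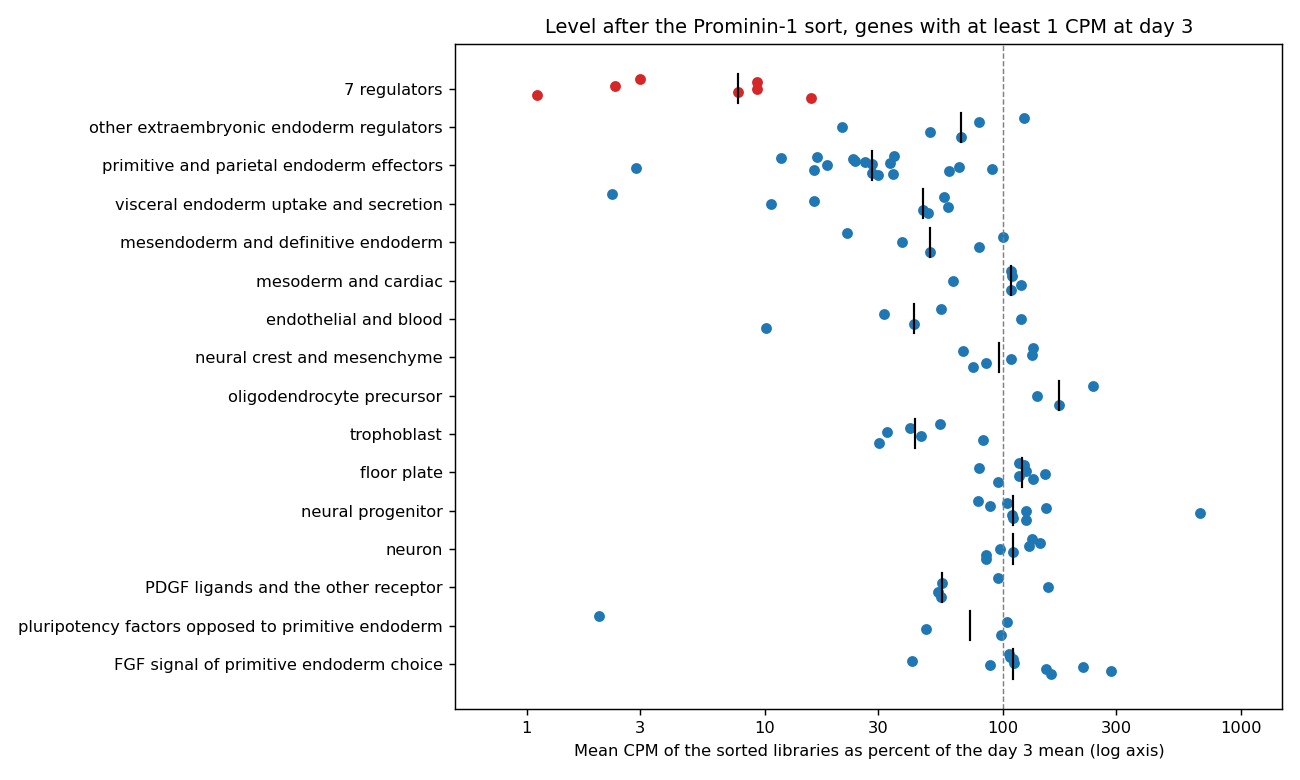
Mean CPM of the sorted libraries as a percentage of the day 3 mean (log axis) for genes with at least 1 CPM at day 3, by list; each point is a gene, red for the 7 regulators, black lines are list medians and the dashed line is 100%. The regulators lie between 1.11% and 15.6% with a median of 7.74%, the effectors have a median of 28.2% and the neural progenitor list one of 110%.

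Lists for the other cell types that use some of these genes were read beside them. The mesendoderm and definitive endoderm list, which includes Foxa2, had 0 of 9 tested genes called after the sort. Its sum was 230 to 342 CPM at day 3 and 221 to 278 CPM in the sorted cells. Cxcr4, also in this list, stood at 133 ± 33.9 CPM at day 3 and 134 ± 11.4 in the sorted cells. Mixl1, Gsc and Cer1 were at the floor in the sorted cells. Of the mesoderm and cardiac list 0 of 8 tested genes were called after the sort, and its summed level was 60.4 to 79.6 CPM at day 3 and 63.9 to 86.3 CPM in the sorted cells. Mesp1 and Msgn1 were at 3 or fewer counts in every library. The neural crest and mesenchyme list had 0 of 10 called, with sums of 63.2 to 70.6 and 54.6 to 60.7 CPM, and Sox10, Foxd3 and Alx1 were at the floor in both groups. The oligodendrocyte precursor list, which shares Olig2 and Nkx2-2 with ventral progenitors, had 0 of 5 called, with sums of 29.0 to 61.4 and 59.0 to 74.4 CPM. The endothelial and blood list had 2 of 11 lower, Flt1 (log2 fold change -3.31 ± 0.24) and Tek (-1.64 ± 0.27), and its sum went from 45.2 to 55.8 CPM at day 3 to 12.8 to 20.2 CPM in the sorted cells. It had 1 lower without day 3 replicate 1, with the replicate block and with each of the 3 FPKM settings. Cdh5, a defining endothelial marker, was at 12.4 ± 1.31 CPM at day 3 and 6.79 ± 3.52 in the sorted cells, and Emcn was at the floor in every library. The trophoblast list had 1 of 8 lower, Plac1, with sums of 64.1 to 103 and 16.4 to 41.8 CPM. The part of these other cell types in the level of each member was not tested.

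The PDGF ligands and the other PDGF receptor gene had 0 of 5 called after the sort. Pdgfa, the ligand through which Pdgfra acts in primitive endoderm, was at 14.3 ± 0.246 CPM at day 3 and 13.7 ± 4.52 in the sorted cells, and Pdgfc at 20.0 ± 2.48 and 30.8 ± 6.61 CPM. From day 1 to day 2 Pdgfa, Pdgfc and Pdgfd were called higher, with log2 fold changes of 0.88 ± 0.24, 2.41 ± 0.39 and 1.55 ± 0.43. Neural progenitor genes had 1 of 9 higher after the sort, 0 lower and 8 not called, with sums of 2368 to 2755 CPM at day 3 and 3171 to 3270 CPM in the sorted cells. Neuron genes had 0 of 7 called.

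The genes whose pattern over all 11 libraries was most like each member were found among 3397 genes with a mean of at least 1 CPM and a range of at least 2 log2 units. Srgn was closest to Gata4 (Pearson's r = 0.98) and to Gata6 (0.99), Klb, the co-receptor beta-klotho, to Pdgfra (0.98) and Cubn to Sox7 (0.99). Pga5 was closest to Sox17 (0.98), Epas1, a hypoxia-inducible factor, to Foxq1 (0.98) and Kdelr3 to Hnf4a (0.97). By the mean of r over the 7 members the leading genes were Srgn, Klb, Epas1, Fabp3, Glipr1, Bmper, Cmklr1 and Habp2, with means from 0.96 down to 0.94. These values rest mainly on the gap between sorted and unsorted libraries. Epas1 went from 76.4 ± 31.7 CPM at day 3 to 2.96 ± 1.44 CPM in the sorted cells, and Klb from 8.004 ± 2.95 to 0.533 ± 0.207 CPM. Fabp3 has a near-identical copy, Fabp3-ps1, also among the genes nearest to Foxq1, so reads may be split between them and its own level is uncertain.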

How the data were processed

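Polyadenylated RNA of 11 libraries was measured. The authors deposited a table of counts per gene, an FPKM table and log2 (voom) values. Of 38197 genes with deposited counts, 104 had fractions, so the authors' values were treated like estimated counts (expected counts) and rounded. The deposited log2 values equal the log2 CPM recomputed from the counts. Per the submitters' processing notes reads were handled with TopHat2 2.0.4, Cufflinks 2.1.1, HTSeq 0.6.1, limma, CASAVA and bcl2fastq 1.8.3, named without roles, and the builds are mm10 and GRCm38. The sources used here give neither annotation nor counting strand. In GENCODE M21, the source of gene positions, 5 members (Gata6, Sox17, Foxq1, Hnf4a and Pdgfra) overlap a gene on the opposite strand. The longest of these overlaps, by whole gene spans, is 34913 bases, between Hnf4a and Hnf4aos. If the counting ignored strand, reads from shared bases cannot be told apart. All columns were matched to libraries by description, with 0 left over.

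Counts were tested in edgeR 4.0.16 (R 4.3.3) by the quasi-likelihood F test with TMM scaling, filterByExpr (minimum count 10), a group means model and Benjamini-Hochberg adjustment over all genes, threshold 0.05. Days 0 to 3 were fitted on 8 libraries, the sorted comparisons on all 11. The SE is the log2 fold change over the square root of F. Members, the 15 lists and the naming rule (all members, up to 4 called genes per list, the nearest 4 genes per member and 8 by mean r) were chosen with earlier results of these data known, and the motif words after the data were seen. The alternatives were RLE factors, no filter, DESeq2 1.42.0, other libraries in the fit, a replicate block, calls limited to absolute log2 fold changes of at least 1, limma 3.58.1 on log2(FPKM + 1), log2(FPKM + 0.1) (FPKM of at least 1 in 2 libraries), log2(FPKM + 1) without a filter or voom values, leaving out each library and, added later, a GC offset (lowess on transcript GC, available for 92.8% and 92.7% of tested genes). Tested on simulated data, the fit found 30.3% of the 2-fold and 90.1% of the 8-fold changes put in for day 2 against day 1 (16434 genes), and 37.6% and 89.6% for sorted against day 3 (16518 genes).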

Additional observations from a re-analysis of the deposited data

How the results depend on the processing

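The calls of all 7 members lower after the sort, against day 3 and against day 0, held in each alternative that tested them, with 1 exception: Hnf4a against day 3 had adjusted p = 0.0987 with log2(FPKM + 1) without a filter. Hnf4a did not pass the FPKM filter, which left 6 of 6 members lower there. The steps between unsorted days depended on the settings. At day 1 the count of members lower (1 by edgeR) was 2 with no filter on low counts and with DESeq2, 3 with the GC offset, and 0 with a minimum absolute log2 fold change of 1, log2(FPKM + 1) with or without a filter, log2(FPKM + 0.1) and the voom values. Leaving out 1 library gave 0 to 2. At day 2 the count of members higher (3 by edgeR) was 1 with the minimum fold change, log2(FPKM + 1) and log2(FPKM + 0.1), and 0 with log2(FPKM + 1) without a filter. Leaving out 1 library gave 0 to 4. A fit without 1 library leaves a lone library in a group, which is then assumed to vary like the others. The causes were not tested.

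Some log2 fold changes that were not called changed sign. Sox7 at day 1 was 0.0493 with log2(FPKM + 1) with or without a filter, 0.067 with log2(FPKM + 0.1) and 0.0188 with the voom values. Without 1 library at a time, Sox7 at day 2 ranged from -0.0158 (without day 2 replicate 2) to 0.42, and Hnf4a from -0.23 (without day 1 replicate 1) to 0.33, with -0.12 without day 2 replicate 1. Hnf4a was -0.18 with the GC offset. At day 3 the lowest values were those without day 3 replicate 1: Gata4 ranged from -0.0195 to 0.64, Foxq1 from -0.14 to 0.51, Hnf4a from -0.16 to 0.60 and Pdgfra from -0.24 to 0.46.

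Same-numbered libraries deviated together between some groups and in opposite directions between others (correlations of replicate 1 deviations between groups from -0.69 to 0.63). Whether the numbers pair the samples cannot be told from such mixed signs. With the replicate number as a block the count of members was 1 lower at day 1, 3 higher at day 2, 0 at day 3 and 7 lower in both sorted comparisons. Gata6 at day 2 then had adjusted p = 0.0677, and Pdgfra 0.0456.

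Counts over all genes moved more. At day 1, 1498 lower became 977 with the block, 797 with the minimum fold change, 690 to 795 with FPKM and 2873 with the GC offset, and 879 to 1303 without 1 library, where 2015 higher became 1301 to 1715. At day 2, 1623 higher became 776 to 927 with FPKM and 593 to 2493 without 1 library, and 1679 lower became 408 to 1875. At day 3, 473 higher ranged from 44 to 1402 over the settings and from 10 to 650 without 1 library, and 211 lower from 44 to 1049 and from 3 to 306. After the sort, 74 higher ranged from 26 to 353 and from 11 to 84, and 499 lower from 232 to 856 and from 173 to 588. Against day 0, 5345 lower became 3387 with the minimum fold change. Read in the transcribed direction only, GATA words were in 17% and SOX words in 5.54% of start-site windows.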
